A study of Homo sapiens with 18 samples.

Results

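The rows MIR3648, MIR3687, MIR663A, RNA5_8SP6 and CTD_2328D6_1 were examined, 5 of the 17026 endogenous rows of an expression table. They were picked from these same libraries because they were far higher with THZ1 or took a high share of the reads. The group was labelled as repeat rows related to ribosomal RNA precursor, a tie that the annotation described below does not show for MIR663A and CTD_2328D6_1. All 5 passed the filter on low values. The DMSO libraries entered that choice too, as the base of the rise and as part of the share. All differences of the 5 rows, between treatments and between lines, are therefore given as descriptions, with standard errors and no p-values.

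The series compared 3 human lines of pancreatic ductal adenocarcinoma, PANC-1, MIA PaCa-2 and BxPC-3, kept for 6 h in 100 nM THZ1 or in the solvent DMSO. THZ1 binds covalently to CDK7, a kinase that acts on the tail of RNA polymerase II, and also to CDK12 and CDK13. Each of the 6 groups had 3 replicates, stated to be biological, which gave 18 libraries of polyadenylated RNA with ERCC control RNA added after extraction. Each line is an established culture with a genotype of its own. All 3 were kept in F12 medium with serum, antibiotics, β-glycerophosphate and ascorbic acid, so within a line the labels name no difference but THZ1 or DMSO.

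Ribosomal RNA is made by RNA polymerase I from tandem repeats on the short arms of the acrocentric chromosomes. One long precursor holds an external spacer at its 5′ end, then 18S, an internal spacer, 5.8S, a second internal spacer, 28S and a final external spacer. The spacers are cut out and destroyed in the nucleolus, in large part by the nuclear exosome, and short tails of adenosine mark such RNA for decay. Mature ribosomal RNA carries no poly(A) tail, and preparations of polyadenylated RNA leave most of it behind.

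RefSeq on GRCh38.p14 lists 5 genes for the 45S precursor and 5 for 5.8S, and 15 entries are named as 5.8S pseudogenes. MIR3648 has 2 copies there. One copy lies within RNA45SN2, with RNA18SN2 as its next neighbour, which places it in the 5′ external spacer. The other lies outside every listed 45S gene. MIR3687 has 2 copies in GENCODE 29, each next to a MIR3648 copy, and the first lies within RNA45SN2 between MIR3648-1 and RNA18SN2. MIR663A has 1 entry, which lies within its host transcript MIR663AHG and in no listed 45S gene. RNA5-8SP6, a pseudogene of 5.8S, has the 18S pseudogene RNA18SP2 as a neighbour. CTD_2328D6_1, named for a genomic clone, matched no entry of either annotation. The annotation thus ties a copy each of MIR3648 and MIR3687 to the precursor and RNA5_8SP6 to a 5.8S-like sequence, and leaves MIR663A and CTD_2328D6_1 without such a tie. The authors aligned to hg19, and which copy each row stands for there could not be read. Reads from any copy may have been assigned to these rows, and how the authors' counting treated reads with several matches is not given in the sources used here.

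MiR-3648 and miR-663a had a mature sequence in the RefSeq table, and these are shown because their composition is the one sequence feature that could be compared. Capitals mark the seed, bases 2 to 8 from the 5′ end.
hsa-miR-3648: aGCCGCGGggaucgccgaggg
hsa-miR-663a: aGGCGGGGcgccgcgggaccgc
The first is placed at chr21:8987026-8987046 on the plus strand (copy MIR3648-2) and the second at chr20:26208243-26208264 on the minus strand, both in GRCh38.p14. Of the 21 bases of miR-3648, 17 were G or C (81.0%), and of the 22 bases of miR-663a, 20 were G or C (90.9%), against a median of 52.2% over 2370 mature human microRNAs. Only 67 of those 2370 (2.83%) were as rich in G and C as miR-3648, and 11 (0.464%) as rich as miR-663a. The seeds differ: that of miR-3648 is shared with 0 other mature microRNAs in the table and that of miR-663a with 3 (miR-1908-5p, miR-6787-5p and miR-10396b-5p). MIR3687, RNA5-8SP6 and CTD_2328D6_1 are named only. These libraries were not made from small RNA, so a count for a microRNA row is a count of reads over that locus and not a measure of the mature microRNA.

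The libraries held 6336140 to 20862888 endogenous reads. PANC-1 DMSO replicate 1 was the shallowest and stood apart. Its log2 values left the group mean with an SD of 0.519, where the other 17 libraries had 0.103 to 0.309. The 5 rows were all higher in it than in the other 2 PANC-1 DMSO libraries, so most PANC-1 results are given with and without it. Of 7 duct and tumour epithelium markers 6 were listed, all but EPCAM. KRT8 and KRT18, epithelial keratins, were read in all lines (659 to 3311 and 164 to 528 on the scale below). KRT7 and CDH1 were read in BxPC-3 (1888 to 3786 and 285 to 625). They were near 0 in MIA PaCa-2 (0.769 to 2.42 and 0.0893 to 0.216) and low in PANC-1 (2.50 to 7.26 and 1.96 to 4.89). KRT19 was at 1359 to 2012 in BxPC-3, 706 to 975 in PANC-1 and 55.4 to 86.4 in MIA PaCa-2. MUC1 was at 5.64 to 13.2 in BxPC-3, 9.71 to 18.1 in MIA PaCa-2 and 13.1 to 42.8 in PANC-1. Of 5 leukocyte markers 2 were listed, with a summed value of 1.78 to 7.26. Of 5 fibroblast markers 3 were listed, with a summed value of 9.67 to 95.7, and of 3 endothelial markers 1, at 0.204 to 6.79. Levels below are the authors' values times a constant, so that the mean library sums to 1000000, and they are not corrected for length. On this scale a value of 1 stood for 6.34 to 24.7 reads. Library sums were not equal on it, and in BxPC-3 and MIA PaCa-2 they were higher with THZ1. In the authors' unit replicate 3 summed to 45754 with DMSO and 76026 with THZ1 in BxPC-3. The same sums were 47489 and 74510 in MIA PaCa-2 and 43724 and 47684 in PANC-1. Ratios of the levels below carry this difference.

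MIR3648, which has a copy in the 5′ external spacer, was the most read of the 3 microRNA rows. In BxPC-3 its 3 DMSO libraries held 112, 75.1 and 94.2, and its 3 THZ1 libraries 832, 869 and 975. The THZ1 libraries thus lay well above all DMSO libraries, a ratio of means of 9.52. In MIA PaCa-2 the DMSO libraries held 346, 352 and 328, and the THZ1 libraries 12216, 12461 and 10291, a ratio of 34.1. In that line 97794 to 139555 reads per THZ1 library fell on this row, 0.781% to 0.953% of all endogenous reads, against 0.0391% to 0.0421% with DMSO. In PANC-1 the DMSO libraries held 1402, 144 and 119, and the THZ1 libraries 283, 325 and 271. The THZ1 values of PANC-1 therefore lay between DMSO replicate 1 and the other two, and the ratio of means was 0.527 with that replicate and 2.22 without it.

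MIR3687, which also has a copy in the 5′ external spacer, had the same order of group means at a lower read count. BxPC-3 went from 40.4, 29.9 and 32.02 with DMSO to 292, 320 and 354 with THZ1. MIA PaCa-2 went from 123, 124 and 123 to 4032, 4213 and 3506. PANC-1 went from 629, 48.6 and 39.0 to 97.2, 105 and 93.3. Again DMSO replicate 1 of PANC-1 was the one DMSO library above its THZ1 group. The ratios of means were 9.44 (BxPC-3), 31.7 (MIA PaCa-2) and, in PANC-1, 0.413 with that replicate and 2.25 without it.

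MIR663A, whose RefSeq entry lies outside the 45S genes, had the same pattern. Its values were 77.9, 64.2 and 73.3 with DMSO and 600, 646 and 696 with THZ1 in BxPC-3. In MIA PaCa-2 they were 245, 256 and 252 with DMSO and 8437, 8793 and 7434 with THZ1. In PANC-1 they were 339, 104 and 84.0 with DMSO and 200, 222 and 190 with THZ1. The ratios of means were 9.02, 32.8 and, in PANC-1, 1.16 with DMSO replicate 1 and 2.17 without it. That replicate stood out less here, at 2.83 times the mean reads per 1000000 of the other two PANC-1 DMSO libraries, than for MIR3648 (8.32 times) or MIR3687 (11.2 times).

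RNA5_8SP6, the 5.8S pseudogene row, rested on few reads with DMSO. BxPC-3 had 38, 21 and 36 reads with DMSO and 322, 362 and 357 with THZ1, which are values of 1.80, 1.28 and 2.07 and of 25.1, 29.8 and 28.8. The shallowest of these counts, 21 reads, was 0.000159% of the library (exact binomial 95% interval 9.82e-05 to 0.000243, counting error only). MIA PaCa-2 went from 72, 70 and 57 reads to 3002, 2945 and 2175, that is from 2.91, 3.77 and 3.36 to 275, 263 and 229. PANC-1 had 187, 65 and 39 reads with DMSO and 143, 103 and 128 with THZ1, values of 29.5, 3.32 and 2.25 and of 8.24, 6.79 and 8.17. The groups did not overlap in BxPC-3 or MIA PaCa-2, and in PANC-1 they overlapped through DMSO replicate 1 alone. The ratios of means were 16.2, 76.3 and, without that replicate, 2.77, each above those of the microRNA rows. With that replicate the PANC-1 ratio was 0.661.

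CTD_2328D6_1 was the row with the most reads of all 17026 in 15 libraries and the second in the 3 DMSO libraries of MIA PaCa-2. It took 2.50%, 2.19% and 2.20% of endogenous reads in BxPC-3 with DMSO and 2.45%, 2.64% and 2.66% with THZ1, so the groups overlapped. In MIA PaCa-2 it took 1.69%, 1.98% and 1.87% with DMSO and 3.15%, 3.03% and 2.90% with THZ1, with no overlap. In PANC-1 it took 5.82%, 1.96% and 1.97% with DMSO and 1.96%, 2.26% and 1.75% with THZ1. Its share was thus highest in PANC-1 DMSO replicate 1, and the THZ1 libraries of that line enclosed the other two DMSO libraries. Between the lowest and the highest library its reads per 1000000 differed 3.45-fold, where those of MIR3648 differed 102-fold and those of RNA5_8SP6 130-fold.

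**Figure D1:**
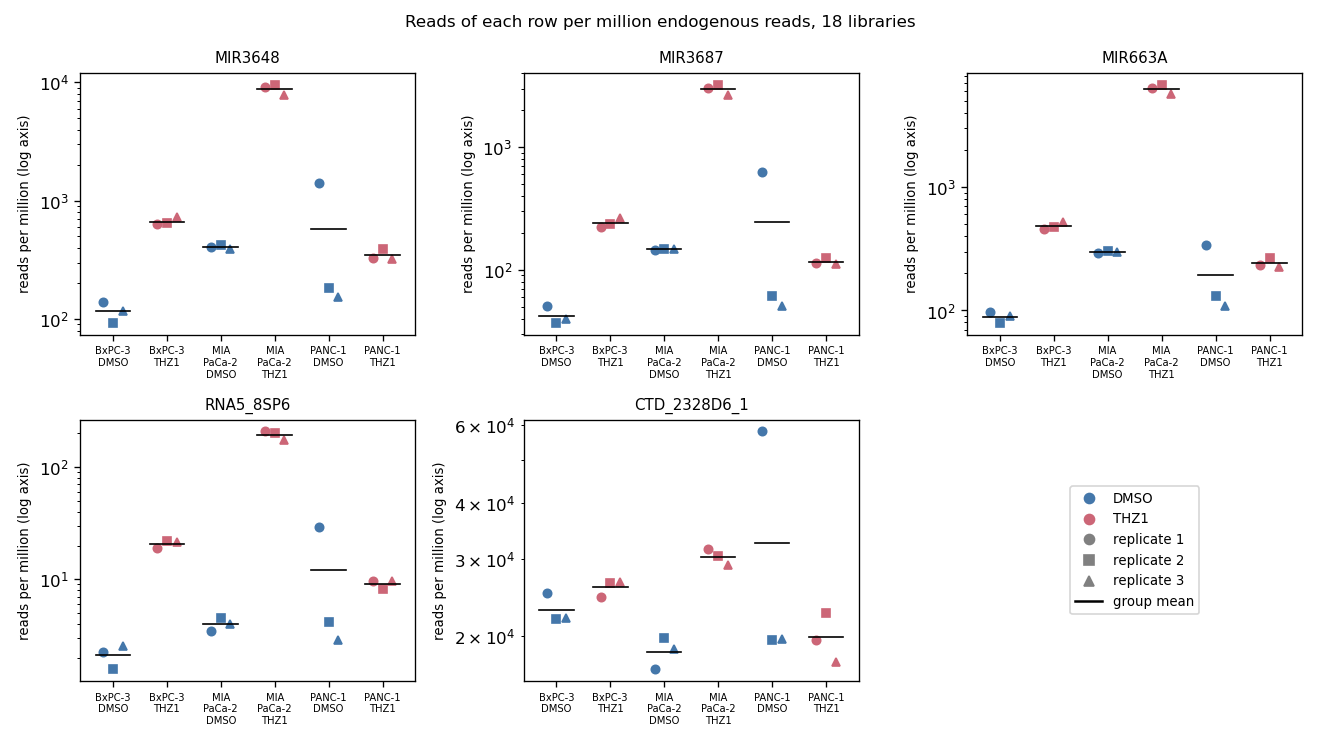
Reads of each row per 1000000 endogenous reads (log axis) in the 18 libraries, by line and treatment, with 1 marker shape per replicate and a line at the group mean. In MIA PaCa-2 the THZ1 libraries of MIR3648, MIR3687, MIR663A and RNA5_8SP6 sit far above the DMSO libraries, and in PANC-1 DMSO replicate 1 sits above the other two DMSO libraries in all 5 panels.

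Together MIR3648, MIR3687, MIR663A and RNA5_8SP6 took 0.0211% to 0.0290% of the endogenous reads of the BxPC-3 DMSO libraries and 0.133% to 0.153% of the THZ1 libraries. The MIA PaCa-2 shares were 0.0841% to 0.0880% and 1.63% to 1.97% in the same order. The PANC-1 DMSO libraries had 0.240%, 0.0380% and 0.0316%, and the THZ1 libraries 0.0666% to 0.0788%. With CTD_2328D6_1 added, the 5 rows took 4.53% to 5.03% of the reads of the MIA PaCa-2 THZ1 libraries and 1.77% to 2.07% of the DMSO libraries. In these bulk samples, more RNA per cell and more cells with the RNA cannot be told apart.

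The 3 microRNA rows kept nearly fixed proportions within a library, a measure that does not depend on how libraries are scaled to each other. Leaving out PANC-1 DMSO replicate 1, there were 35.0 ± 1.90 reads of MIR3687 (SD, n = 17) and 72.6 ± 4.17 reads of MIR663A per 100 reads of MIR3648. The range was 32.4 to 39.8 for MIR3687 and 68.4 to 85.5 for MIR663A, across libraries whose MIR3648 reads per 1000000 differed 102-fold. In PANC-1 DMSO replicate 1 the proportions were 44.9 and 24.2, both outside those ranges. RNA5_8SP6 did not hold a fixed proportion. Per 100 MIR3648 reads it had 1.84 ± 0.317 reads in BxPC-3 with DMSO and 3.13 ± 0.257 with THZ1 (SD, n = 3), 0.980 ± 0.121 and 2.20 ± 0.0747 in MIA PaCa-2, and 2.10 ± 0.206 and 2.67 ± 0.506 in PANC-1. The treated and control libraries did not overlap in BxPC-3 and MIA PaCa-2 and overlapped in PANC-1. The proportion of CTD_2328D6_1 to MIR3648 differed 73.9-fold between libraries.

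**Figure D2:**
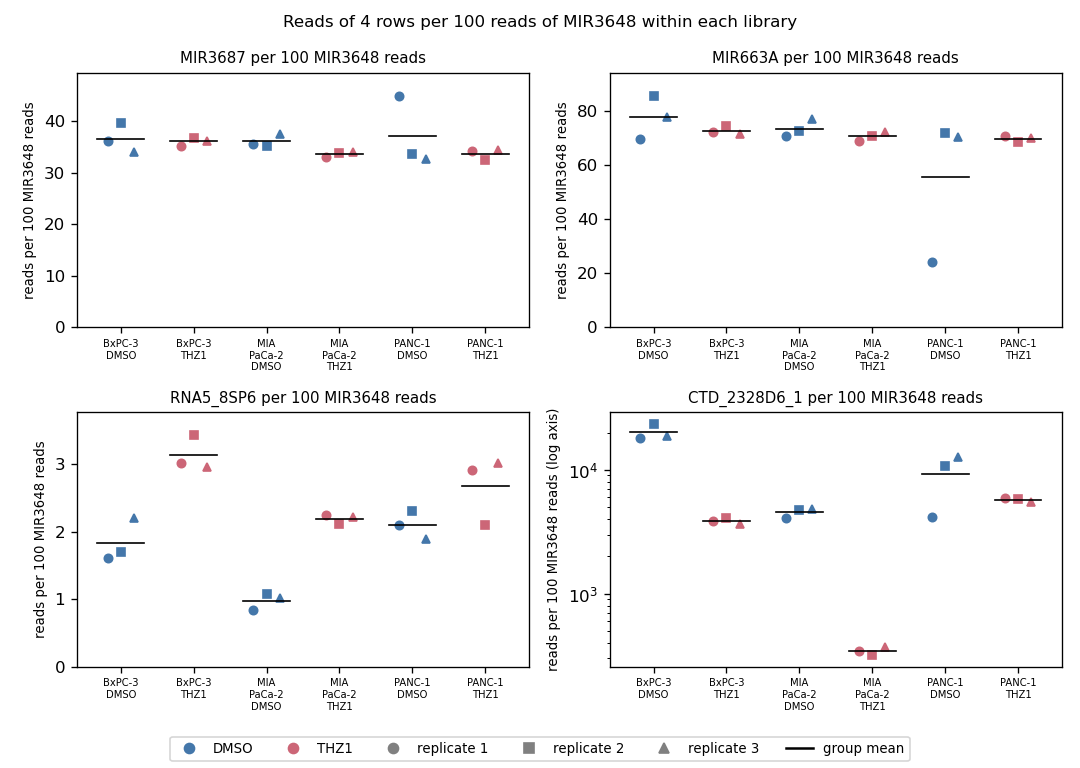
Reads of MIR3687, MIR663A, RNA5_8SP6 (linear axes from 0) and CTD_2328D6_1 (log axis) per 100 reads of MIR3648 within each of the 18 libraries, with a line at the group mean. MIR3687 and MIR663A stay at 32.4 to 39.8 and 68.4 to 85.5 in 17 libraries, PANC-1 DMSO replicate 1 lies outside both ranges, and RNA5_8SP6 is higher with THZ1 in BxPC-3 and MIA PaCa-2.

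Deviations from the group mean were also shared. Over the 18 libraries the log2 deviations of each pair of the 5 rows correlated at 0.960 to 0.997, a value that the one PANC-1 library dominates. In the 15 libraries outside PANC-1 DMSO the 3 microRNA rows correlated with each other at 0.910 to 0.936, CTD_2328D6_1 with them at 0.657 to 0.753, and RNA5_8SP6 with them at 0.365 to 0.470. The pair RNA5_8SP6 and CTD_2328D6_1 correlated at 0.224. These points share their library's depth and scale, so the correlations are descriptions only.

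On the log2 scale of value plus 1, which understates the change of a low row such as RNA5_8SP6, the THZ1 minus DMSO differences in BxPC-3 were 3.25 (SE 0.58) for MIR3648, 3.21 (SE 0.64) for MIR3687, 3.16 (SE 0.32) for MIR663A, 3.42 (SE 0.52) for RNA5_8SP6 and 0.91 (SE 0.34) for CTD_2328D6_1. The median of all 15354 genes tested was 0.25. The first 4 rows stood at ranks 4, 6, 7 and 3 of the 15354 and CTD_2328D6_1 at rank 2221. All 5 rows had THZ1 libraries above every DMSO library on this scale, as did 51.1% of the genes tested.

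In MIA PaCa-2 the differences were 5.08, 4.97, 5.03 and 5.88 for MIR3648, MIR3687, MIR663A and RNA5_8SP6, with the same standard errors. In this fit these were the 4 steepest of the genes tested (ranks 2, 4, 3 and 1). CTD_2328D6_1 followed at 1.37 and rank 231, and the median gene was at 0.19. Here too all 5 rows had no overlap between the groups, as did 47.6% of the genes tested in the same direction.

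In PANC-1 the differences with all libraries were 0.01 for MIR3648, -0.12 for MIR3687, 0.50 for MIR663A, 0.21 for RNA5_8SP6 and -0.52 for CTD_2328D6_1, beside a median of -0.07. None of the 5 had every THZ1 library above every DMSO library, where 8.34% of genes did, and none had the reverse. Without DMSO replicate 1 they were 1.15 (SE 0.12), 1.16 (SE 0.11), 1.11 (SE 0.09), 1.22 (SE 0.14) and 0.12 (SE 0.08), and the first 4 rows stood at ranks 5, 4, 7 and 3 of 15164. The first 4 rows then had every THZ1 library above both DMSO libraries, as did 19.3% of genes. Leaving that library out also shrank the standard errors in the other lines to between 0.07 and 0.13, since all groups share 1 estimate of the spread.

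**Figure D3:**
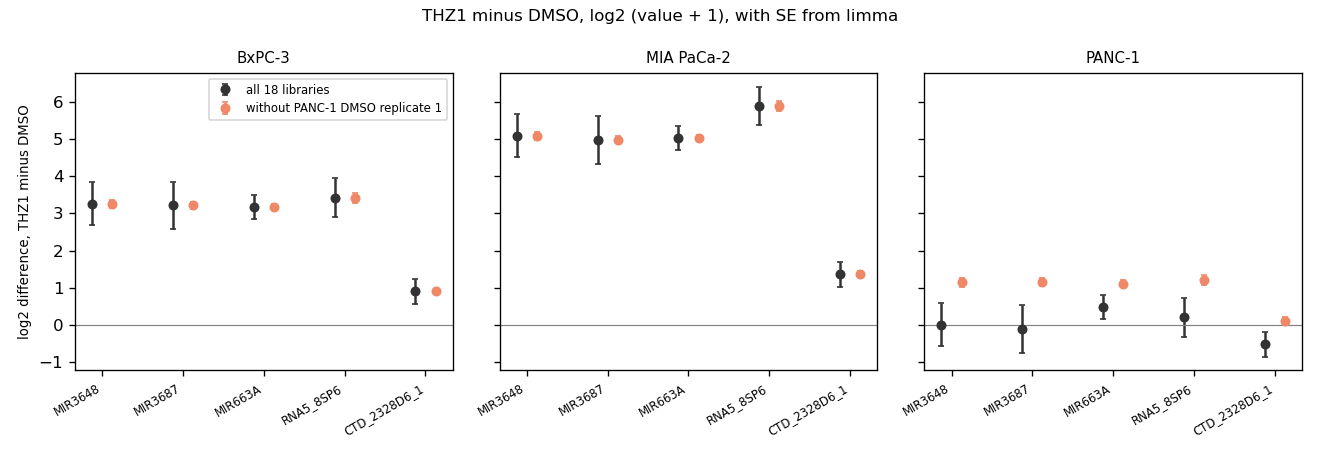
THZ1 minus DMSO difference of each row on the log2 (value + 1) scale in the 3 lines, with SE bars from limma, for all 18 libraries (dark) and without PANC-1 DMSO replicate 1 (orange). The first 4 rows lie near 3.2 to 3.4 in BxPC-3 and 5.0 to 5.9 in MIA PaCa-2 either way, and in PANC-1 they move from between -0.12 and 0.50 to between 1.11 and 1.22 when that library is left out.

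The response of the first 4 rows was larger in MIA PaCa-2 than in BxPC-3 by 1.83 (SE 0.15), 1.76 (SE 0.13), 1.87 (SE 0.11) and 2.47 (SE 0.18) for MIR3648, MIR3687, MIR663A and RNA5_8SP6, with PANC-1 DMSO replicate 1 left out. With all libraries these 4 differences were the same, but their SEs were 0.82, 0.91, 0.46 and 0.74. The response in PANC-1, without that library, was below that of BxPC-3, with differences of -2.11, -2.05, -2.04 and -2.20. With all libraries they were -3.24, -3.325, -2.66 and -3.21. For CTD_2328D6_1 the same 2 comparisons gave 0.46 (SE 0.10) and -0.78 (SE 0.11) without that library. With all libraries they gave 0.46 and -1.42 (SE 0.475 each). Since the rows were chosen by their response, these differences have no test.

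The scale between libraries shifted the size of the response but not its direction for the first 4 rows in BxPC-3 and MIA PaCa-2. With equal ERCC totals in every library, the median gene moved in BxPC-3 to -0.64, in MIA PaCa-2 to -0.85 and in PANC-1 to -0.32. On that scale MIR3648, MIR3687, MIR663A and RNA5_8SP6 were still 2.07, 2.03, 1.97 and 2.40 higher with THZ1 in BxPC-3 and 3.79, 3.68, 3.73 and 4.74 higher in MIA PaCa-2. CTD_2328D6_1 turned direction in BxPC-3, to -0.29, and was at 0.07 in MIA PaCa-2. In PANC-1 with all libraries the ERCC scale gave -0.27, -0.39, 0.22, -0.003 and -0.80 for the 5 rows in the same order. As reads per ERCC read, the ratio of MIR3648 was 4.15 (BxPC-3), 13.98 (MIA PaCa-2) and, in PANC-1, 0.497 with DMSO replicate 1 and 1.72 without it.

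Levels in DMSO also differed between the lines. The microRNA rows were lowest in BxPC-3. On the log2 scale MIA PaCa-2 was above BxPC-3 by 1.88 for MIR3648 (SE 0.58), 1.84 for MIR3687 (SE 0.64) and 1.79 for MIR663A (SE 0.32). All 3 MIA PaCa-2 libraries lay above all 3 BxPC-3 libraries for each, and 79.7% of genes had such a separation in either direction. The difference was 0.68 (SE 0.52) for RNA5_8SP6 and -0.26 (SE 0.34) for CTD_2328D6_1. On this scale the libraries of the lines did not overlap for these rows either, with MIA PaCa-2 above for RNA5_8SP6 and below for CTD_2328D6_1. Without PANC-1 DMSO replicate 1 these differences stayed and their standard errors were 0.07 to 0.13. Differences between lines were common in the whole table: by limma 62.6% of genes passed for MIA PaCa-2 against BxPC-3, 59.1% for PANC-1 against BxPC-3 and 60.8% for PANC-1 against MIA PaCa-2.

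The place of PANC-1 depended on its DMSO replicate 1. With all libraries PANC-1 was above BxPC-3 by 1.64 for MIR3648 (SE 0.58), 1.63 for MIR3687 (SE 0.64), 1.00 for MIR663A (SE 0.32), 1.48 for RNA5_8SP6 (SE 0.52) and 0.38 for CTD_2328D6_1 (SE 0.34). Without that library the differences were 0.50 (SE 0.12), 0.36 (SE 0.10), 0.38 (SE 0.09), 0.48 (SE 0.14) and -0.26 (SE 0.08) in the same order. The other 2 PANC-1 libraries then lay above all BxPC-3 libraries for MIR3648, MIR663A and RNA5_8SP6. They lay below them for CTD_2328D6_1 and overlapped with them for MIR3687. How many of all genes were separated in this way was not counted, so it is not read as a trait of these rows. For MIA PaCa-2 against BxPC-3, 79.7% of genes were separated.

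Against MIA PaCa-2, the PANC-1 differences with all libraries were -0.24 for MIR3648, -0.21 for MIR3687, -0.80 for MIR663A, 0.80 for RNA5_8SP6 and 0.63 for CTD_2328D6_1, with the same standard errors. Without PANC-1 DMSO replicate 1 they were -1.37 (SE 0.12), -1.48 (SE 0.10), -1.41 (SE 0.09), -0.21 (SE 0.14) and -0.01 (SE 0.08). The means of the microRNA rows then went from BxPC-3 through PANC-1 to MIA PaCa-2 from low to high. For RNA5_8SP6 the values of PANC-1 and MIA PaCa-2 overlapped.

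**Figure D4:**
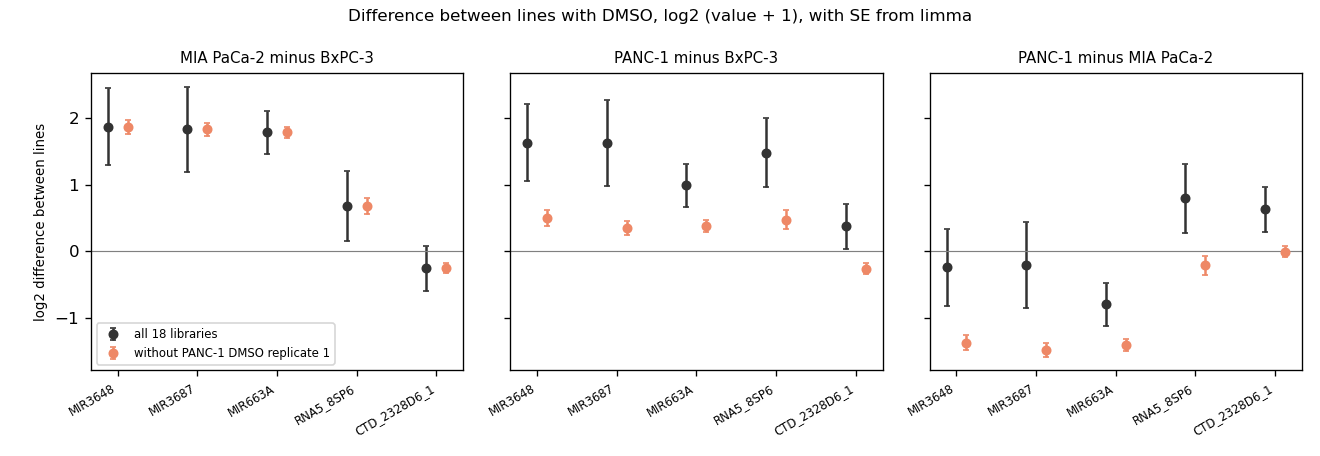
Differences between lines kept in DMSO for each row on the log2 (value + 1) scale, with SE bars from limma, for all 18 libraries (dark) and without PANC-1 DMSO replicate 1 (orange). The MIA PaCa-2 minus BxPC-3 differences of the microRNA rows stay near 1.8 to 1.9, and both contrasts with PANC-1 move down when that library is left out.

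PANC-1 DMSO replicate 1 exceeded the other two PANC-1 DMSO libraries, in log2 reads per 1000000, by 3.05 for MIR3648, 3.48 for MIR3687, 2.76 for RNA5_8SP6, 1.56 for CTD_2328D6_1 and 1.50 for MIR663A. Among 15354 genes these were ranks 11, 7, 19, 346 and 407, beside a median gene of 0.03. Several RNAs made without a poly(A) tail were also high there, by unequal amounts, and are named after their values were seen. RN7SK, the small nuclear RNA that holds P-TEFb inactive, and RMRP, the RNA of the ribonuclease MRP that cuts the ribosomal precursor, each stood at 13.7 times the mean of the other two. RPPH1, the RNA of ribonuclease P, stood at 9.50 times, RN7SL2 at 2.90 times and RN7SL1 at 1.94 times. The summed reads of the structural small RNA rows stood at 3.10 times, with a median row 0.59 higher on the log2 scale. Those of the 2277 other rows named for genomic clones stood at 5.21 times, 7.73% of the endogenous reads of that library, whereas the median row tested was 0.39 higher on the log2 scale. Genes of the ribosome assembly and exosome lists described next lay lower in it, with list medians of -0.22 to -0.49. The part of RNA quality, depth or poly(A) selection in these values was not tested.

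The machinery that makes and cuts the ribosomal precursor is encoded by messenger RNA of RNA polymerase II, and its genes moved in both directions. Of 16 listed genes of RNA polymerase I transcription, 2 rose and 9 fell in BxPC-3 with a median of -0.43, and 2 rose and 7 fell in MIA PaCa-2 with a median of -0.27 (limma, adjusted p under 0.05). Over all genes 40.0% rose and 18.9% fell in BxPC-3, and 36.5% rose and 19.8% fell in MIA PaCa-2. This balance hung on the scale. With every library scaled to an equal sum of reads, 1416 of 15368 genes rose and 6607 fell in BxPC-3, and 1437 rose and 6627 fell in MIA PaCa-2. On the ERCC scale 0 of the 16 rose and 14 and 16 fell, where 1.31% of all genes rose and 58.7% fell in BxPC-3, and 1.37% rose and 73.3% fell in MIA PaCa-2. These shares of all genes are the background of each count on the ERCC scale given below. TWISTNB, a subunit of polymerase I, went from 48.8 ± 2.17 (SD, n = 3) to 93.5 ± 3.23 in BxPC-3 (0.93, limma adjusted p = 5.66e-07), but from 45.6 ± 1.87 to 60.3 ± 4.25 in MIA PaCa-2 (0.40). Both of its differences were below 0 on the ERCC scale (-0.25 and -0.88). TBP, the TATA-binding protein that is shared by the promoter complexes of all 3 nuclear polymerases, fell from 20.6 ± 1.39 to 10.7 ± 1.29 in BxPC-3 (-0.89, limma adjusted p = 1.81e-06) and from 27.3 ± 0.802 to 15.8 ± 1.49 in MIA PaCa-2 (-0.76).

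Factors that process the 5′ external spacer and 18S, the stretch that holds a copy each of MIR3648 and MIR3687, numbered 37. In BxPC-3 13 rose and 10 fell (median 0.04), and in MIA PaCa-2 15 rose and 5 fell (median 0.12). NOP56, a core protein of the box C/D small nucleolar particles, rose from 361 ± 14.3 to 803.5 ± 25.7 in BxPC-3 (1.15, limma adjusted p = 5.86e-08) and from 266 ± 7.04 to 562.5 ± 13.5 in MIA PaCa-2 (1.08), but was at -0.04 and -0.21 on the ERCC scale. IMP3, a protein bound to the U3 small nucleolar RNA, fell from 39.1 ± 1.05 to 10.3 ± 0.889 in BxPC-3 (-1.83, limma adjusted p = 7.36e-10) and from 25.5 ± 0.423 to 17.1 ± 1.46 in MIA PaCa-2 (-0.55). With ERCC scaling 0 of the 37 rose, and 30 and 33 fell.

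Factors of the internal spacers, 5.8S and 28S, the stretch that RNA5_8SP6 resembles, numbered 32, of which 16 rose and 10 fell in BxPC-3 and 13 rose and 8 fell in MIA PaCa-2 (medians 0.23 and 0.19). NPM1, the nucleolar chaperone nucleophosmin, rose from 1157 ± 13.8 to 2271 ± 4.61 and from 2101 ± 34.0 to 4213 ± 134 (0.97 and 1.00), and GNL3, nucleostemin, fell from 88.1 ± 1.04 to 32.8 ± 2.15 and from 125.5 ± 3.83 to 59.9 ± 0.710 (-1.40 and -1.05). On the ERCC scale 0 of the 32 rose and 28 and 27 fell, and NPM1 was at -0.22 and -0.29.

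The nuclear exosome with its cofactors and XRN2, which degrade the cut spacers, numbered 21. In BxPC-3 6 rose and 8 fell, and in MIA PaCa-2 8 rose and 6 fell (medians 0.06 and 0.19). Its core subunits went apart: EXOSC5 rose from 32.8 ± 3.01 to 61.2 ± 3.03 and from 25.6 ± 1.79 to 51.5 ± 3.10 (0.88 and 0.98, but -0.28 and -0.28 on the ERCC scale), while EXOSC3 fell from 21.1 ± 1.08 to 6.19 ± 0.556 and from 19.4 ± 0.312 to 10.9 ± 0.946 (-1.62 and -0.78, limma adjusted p = 1.28e-09 and 4.41e-06). Of the 13 genes of microRNA processing 7 rose and 1 fell in BxPC-3, and 7 rose and 2 fell in MIA PaCa-2 (medians 0.40 and 0.28). RAN, the GTPase of nuclear export, rose from 435.5 ± 8.25 to 739 ± 10.2 and from 328.5 ± 3.20 to 607 ± 5.29, but was at -0.43 and -0.41 on the ERCC scale. AGO4, an Argonaute protein, fell in MIA PaCa-2 from 27.6 ± 1.52 to 14.4 ± 0.990 and was at 6.23 ± 1.02 and 5.75 ± 0.384 in BxPC-3 (-0.09, limma adjusted p = 0.56). On the ERCC scale 0 genes of the exosome and microRNA lists rose, and 17 and 12 fell in BxPC-3, and 19 and 12 in MIA PaCa-2.

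Leaving out PANC-1 DMSO replicate 1 raised the totals over the 119 genes of these 5 lists from 44 rising and 38 falling to 59 and 43 in BxPC-3, and from 45 and 28 to 58 and 38 in MIA PaCa-2. The shares of all genes grew too, to 49.8% rising and 24.0% falling in BxPC-3 and 46.6% and 25.4% in MIA PaCa-2. The counts that grew by more than 1.5 times were polymerase I genes that rose in BxPC-3 (4), microRNA processing genes that rose there (11) and 5′ spacer factors that fell in MIA PaCa-2 (9). In PANC-1 0 of the 119 genes of these 5 lists passed, where 0.274% of all genes rose and 0.228% fell. Without DMSO replicate 1, 5 of them rose and 0 fell, beside 5.63% and 1.35% of all genes. Without DMSO replicate 2 or 3, 8 and 24 of them passed, beside 5.59% and 21.8% of all genes.

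Other rows whose names mark small or repeated RNA were also tested, in 4 classes. Of 30 other microRNA rows tested, 12 rose and 1 fell in BxPC-3, and 13 rose and 5 fell in MIA PaCa-2 (medians 0.29 and 0.26), with 3 falling in BxPC-3 when PANC-1 DMSO replicate 1 was left out. On the ERCC scale the balance turned: of 26 such rows tested 2 rose and 9 fell in BxPC-3, and 2 rose and 14 fell in MIA PaCa-2. The group's highest mean change belonged to MIR4461, which went from 2.81 ± 0.917 to 8.18 ± 1.08 in BxPC-3 (1.29, limma adjusted p = 0.00388, and 0.30 on the ERCC scale) and from 6.57 ± 0.955 to 14.9 ± 4.78 in MIA PaCa-2 (1.03, adjusted p = 0.0165, and -0.14 on the ERCC scale). Its lowest, MIR3916, did not pass in either line with all libraries (0.34 and -0.28). Without PANC-1 DMSO replicate 1 it passed in both (limma adjusted p = 0.00318 and 0.0128). The 2 other ribosomal rows tested, the mitochondrial MT_RNR1 and MT_RNR2, both rose in BxPC-3 and MIA PaCa-2 (medians 1.07 and 0.99), and on the ERCC scale 0 passed. MT_RNR2 took 1.32% ± 0.0338 and 1.94% ± 0.0771 of the reads with DMSO and THZ1 in BxPC-3 and 1.97% ± 0.0349 and 2.54% ± 0.101 in MIA PaCa-2 (SD, n = 3). MT_RNR1 took 0.407% ± 0.0427 and 0.441% ± 0.0312 in BxPC-3, where the treated and control libraries overlapped. In MIA PaCa-2 it took 0.265% ± 0.00715 and 0.330% ± 0.0284.

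Of 67 other structural small RNA rows 24 rose and 1 fell in BxPC-3, and 32 rose and 0 fell in MIA PaCa-2 (medians 0.40 and 0.50), and without that library 2 fell in BxPC-3. Here too the balance turned on the ERCC scale, where of 75 rows tested 6 rose and 21 fell in BxPC-3, and 8 rose and 30 fell in MIA PaCa-2. RN7SL1, the RNA of the signal recognition particle, went from 293 ± 68.7 to 726 ± 230.3 (1.29, limma adjusted p = 0.00383) and from 178 ± 42.4 to 521.5 ± 210.4 (1.50, adjusted p = 0.0013), but was at 0.10 and 0.21 on the ERCC scale. RMRP did not pass in either (0.35 and 0.51, adjusted p = 0.704 and 0.583). Of 1628 other clone-named rows, the class to which the name CTD_2328D6_1 belongs, 537 rose and 186 fell in BxPC-3 and 544 rose and 253 fell in MIA PaCa-2 (medians 0.23 and 0.25). The extremes of that class were AC027307_3 (1.51 and 2.77) and RP11_66B24_4 (-2.76 and -3.02). On the ERCC scale 54 and 62 of 1757 clone-named rows tested rose and 698 and 954 fell, and AC027307_3 was at 0.59 and 1.67. Rows of these kinds can share sequence with other copies, and their counts are then uncertain in the same way as those of the 5 rows.

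The genes outside the group with the most similar profile over the 18 libraries were found by the root mean square difference of log2 values, each row centred on its own mean, among 10746 genes at a mean value of 5 or more. MIR3648 and MIR3687 differed by 0.11 on this measure, MIR3648 and MIR663A by 0.37, and MIR3648 and RNA5_8SP6 by 0.48. The nearest gene to each of these 4 rows was FAM166A, at 0.89 from MIR663A, 0.94 from RNA5_8SP6, 1.10 from MIR3648 and 1.13 from MIR3687. Its THZ1 difference in BxPC-3 was 3.71 and that in MIA PaCa-2 4.84, against 0.36 for PANC-1. Next came HIST2H2BE and HIST1H3J, which encode the histones H2B and H3, and GADD45B, a stress-induced gene, at 1.07 to 1.21. CTD_2328D6_1 lay 1.76 to 1.82 from the other 4 rows and was nearest to HSPB1, a small heat-shock protein (0.22), RPL15P2, a ribosomal protein pseudogene (0.23), and RNF167, a ubiquitin ligase (0.23), whose THZ1 differences were 0.86, 0.66 and 0.84 in BxPC-3 and 1.21, 1.05 and 1.10 in MIA PaCa-2. MIR663A, with no 45S entry of its own, lay close to MIR3648 and MIR3687 on this measure, and CTD_2328D6_1 lay far from them. The measure includes the THZ1 rise and the libraries by which the rows were picked, so these distances are descriptions only.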

How the data were processed

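The deposited table holds, for 18 libraries, a signal that the authors made by dividing whole read counts by 1 whole number per library: multiplied by it, 100% of values came out whole to a tolerance of 0.001 (at most 0.000112 off). This unit was not foreseen in the design, and the test planned for normalised values was used. Reads were aligned with STAR to hg19, per the submitters' processing notes; counting program and annotation: not given in the sources used here. Log2 columns that the authors deposited, ratios of THZ1 over DMSO averaged over lines with their SD and a mean level, were not used. Values were multiplied by 17.6795. Genes at 1 or more in at least 3 libraries (15354) were fitted as log2(value + 1) in limma 3.58.1 with a mean trend under R 4.3.3, 6 group means in 1 fit, Benjamini-Hochberg threshold 0.05. The fit was tested on simulated data. Alternatives, effects of which close the text, were ERCC totals, equal sums, DESeq2 1.42.0 and edgeR 4.0.16 scaling or tests on the recovered reads, other filters and pseudocounts, a replicate block and leaving out each library. The 5 rows and all lists were chosen with earlier results of these data known, and a planned test of the 5 rows between lines in DMSO was dropped, since the choice had used those libraries. From each list the genes with the highest and lowest mean change at a mean of 5 or more are named. P-values measure the spread between cultures only.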

Additional observations from a re-analysis of the deposited data

Results flagged for a closer look

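The genes named from the lists were picked for the highest or lowest mean change in these same data. The share of all genes that pass the test below was not counted, so the count of 12 marks no trait of these genes. For 12 of the named genes outside the 5 rows, the THZ1 response differed between the 3 lines by limma's F-test of the interaction, with p adjusted over all genes tested. In rRNA synthesis and processing these were TWISTNB (adjusted p = 0.00202), TBP (adjusted p = 0.000385), NOP56 (adjusted p = 2.32e-05), IMP3 (adjusted p = 1.64e-06) and GNL3 (adjusted p = 3.87e-06). In the exosome and microRNA lists they were EXOSC5 (adjusted p = 0.00241), EXOSC3 (adjusted p = 1.77e-06), RAN (adjusted p = 0.000169) and AGO4 (adjusted p = 0.00216). Among the row classes they were RN7SL1 (adjusted p = 0.0147), AC027307_3 (adjusted p = 2.53e-06) and RP11_66B24_4 (adjusted p = 4.2e-06). For each of the 12, the PANC-1 difference lay between -0.29 and 0.27 on the log2 scale, and all 12 passed without PANC-1 DMSO replicate 1 too. NPM1 (adjusted p = 0.106), MIR4461 (0.543) and MIR3916 (0.145) passed the limma test only without that library (2.33e-10, 0.00572 and 0.00153). RMRP did not pass the limma test with or without that library (adjusted p = 0.392 and 0.911).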

How the results depend on the processing

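The rise of MIR3648, MIR3687, MIR663A and RNA5_8SP6 with THZ1 in BxPC-3 and MIA PaCa-2 kept its sign in all 248 alternative values, which ranged from 1.23 to 6.06. Ranks among all genes were less stable. With edgeR on reads the 4 rows stood, in that order, at ranks 44, 47, 51 and 16 in BxPC-3 and 4, 7, 5 and 1 in MIA PaCa-2. In PANC-1 the sign of the THZ1 difference was not kept for MIR3648 (-0.644 to 1.15) or MIR3687 (-0.976 to 1.16). Nor was it kept there for RNA5_8SP6 (-0.399 to 1.22) or CTD_2328D6_1 (-0.845 to 0.122), while MIR663A stayed above 0 (0.113 to 1.11). Of 459 alternative values of the differences of the 5 rows between lines in DMSO, 10 reversed. The reversed ones were CTD_2328D6_1 in MIA PaCa-2 against BxPC-3 with ERCC totals (0.12), CTD_2328D6_1 in PANC-1 against BxPC-3 without PANC-1 DMSO replicate 1 (-0.26, and 0.70 without replicate 3), and, in PANC-1 against MIA PaCa-2, MIR3648 (0.57) and MIR3687 (0.80) with edgeR on reads, MIR3648 (0.26, 0.40) and MIR3687 (0.35, 0.51) without PANC-1 DMSO replicates 2 and 3 (-1.37 and -1.48 without replicate 1), and RNA5_8SP6 and CTD_2328D6_1 without replicate 1 (-0.21 and -0.007, the lowest of ranges that reached 1.41 and 0.96 when 1 library was left out). Of 835 alternative values of 27 called changes of named genes, 794 held, 28 lost the call and 13 reversed. With ERCC totals these were TWISTNB (-0.25, -0.88), NOP56 (-0.037, -0.21), NPM1 (-0.22, -0.29), EXOSC5 (-0.28, -0.28) and RAN (-0.43, -0.41) in BxPC-3 and MIA PaCa-2 and MIR4461 (-0.14) in MIA PaCa-2, and with equal sums, with and without the 5 rows, TWISTNB in MIA PaCa-2 (-0.24, -0.20). In PANC-1 77 genes passed, against 2832 with ERCC totals, 173 with equal sums, 181 with equal sums without the 5 rows, 21 with DESeq2 size factors, 22 with TMM factors, 26 with no filter, 144 with a filter of 5, 145 with a pseudocount of 5, 343 in the deposited unit, 19 with edgeR, 691 with DESeq2, and 5 to 3340 when 1 library was left out (1059, 857 and 3340 without PANC-1 DMSO replicates 1, 2 and 3). The row classes gave 5 calls in PANC-1, against 243 with ERCC totals, 16 with either form of equal sums, 3 with DESeq2 factors, TMM factors or a filter of 5, 2 with no filter or edgeR, 23 with DESeq2 and 1 to 153 when 1 library was left out. They gave 311 (BxPC-3) and 321 (MIA PaCa-2) with a filter of 5 and 92 and 96 in the deposited unit, since fewer rows are then tested. The pathway lists in PANC-1 gave 0, against 14 with ERCC totals, 2 in the deposited unit and 0 to 24 when 1 library was left out. Apart from those fewer rows, the cause of these changes was not tested. Replicate numbers were not used as pairs in the main fit. Same-numbered deviations correlated at -0.003 to 0.086 in BxPC-3, 0.017 to 0.14 in MIA PaCa-2 and -0.031 to 0.455 in PANC-1. Differently numbered ones reached 0.053, 0.065 and 0.496 in the same order of lines. The replicate block gave 7 genes and 1 row-class call in PANC-1. Depth limits RNA5_8SP6 in particular, with 21 to 72 reads in 8 of the 9 DMSO libraries.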
